A study of Mus musculus with 69 samples.

Results

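Intermediate filament genes were followed by name through the pituitary, hypothalamus and ovary of mice in which the repression of Zeb1 by miR-200 was removed. The 10 genes were the simple keratins Krt7, Krt8, Krt18 and Krt19, vimentin (Vim), nestin (Nes), the neuronal filament genes Nefl, Nefm and Ina, and glial fibrillary acidic protein (Gfap), out of 55964 gene IDs in the count tables. They were taken by their symbols, and each matched a single gene ID. The study compared 69 RNA-seq libraries in 18 groups of 3 or 4 mice, and the methods describe the libraries of a group as separate animals. All mice were females on a C57BL/6J background taken in proestrus. WT mice carried the normal gene, Zeb1 200H mice were heterozygous and Zeb1 200M mice homozygous for an allele whose 3′ UTR sites for miR-200a and miR-200b were mutated in every cell, and the lines came from both targeted ES cell clones. The young cohort was 8–12 weeks old and virgin, and its libraries were depleted of ribosomal RNA, stranded and paired-end. The older cohort was 28–36 weeks old, had been through a breeding trial, and was sequenced from unstranded poly(A) single-end libraries, so age, breeding history and library type cannot be told apart between cohorts. Gene-assigned counts ranged from 3321845 to 14655095 per library and were lowest in the young hypothalamus. In the young WT pituitary, 1 library carried a replicate number that matched none of the WT labels there, and it was tied to its group alone. Levels are given as CPM, counts relative to library size with TMM factors set within a tissue and cohort, and a gene was called changed at a Benjamini-Hochberg adjusted p below 0.05 in edgeR's quasi-likelihood test across all genes.

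Intermediate filaments are the rope-like part of the cytoskeleton, and each cell lineage builds them from its own members of the gene family. Keratins work as pairs of a type I chain (Krt18, Krt19) with a type II chain (Krt7, Krt8) in epithelial cells, vimentin forms filaments in mesenchymal cells, nestin in progenitor and vascular cells, Gfap in astrocytes, and the neurofilament chains and alpha-internexin (Ina) in neurons. ZEB1 is a transcriptional repressor that binds E-box motifs such as CACCTG and is known for lowering epithelial genes when epithelial cells become mesenchymal, a transition in which keratins give way to vimentin, and the miR-200 family limits ZEB1 in epithelial cells.

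The mature sequences of the miRNAs whose sites were mutated are shown because they define the allele. Capitals mark the seed, bases 2 to 8, in the RefSeq sequences on GRCm38.p6. miR-200b-3p lies on the minus strand at chr4:156055685-156055706, and miR-200a-3p on the same strand at chr4:156054911-156054932.
miR-200b-3p: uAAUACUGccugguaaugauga
miR-200a-3p: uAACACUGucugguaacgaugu
The seeds differ at a single base, and the DNA words they pair with are CAGTATT and CAGTGTT. In the longest annotated 3′ UTR of each gene, 1 of the 10 filament genes held such a word (Krt7, with a single CAGTGTT), against 25.7% of 20913 genes. The reference Zeb1 3′ UTR held 5 and 4 of them.

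Promoters are shown for the keratins that changed together in the pituitary and for Vim, which changed the other way. Capitals mark CACCTG, searched on both strands, with the other strand reading CAGGTG. The study gives a wider ZEB1 motif, CAGGTR with R for A or G. Its form CAGGTA was neither marked nor counted here, and it occurs in the Krt8 and Krt18 runs. Each run covers 250 bases before and 50 after the RefSeq start site, 5′ to 3′ on the strand of the gene, on GRCm38.p6. The Krt7 run is chr15:101412153-101412452 (plus strand), with the motif starting at -44 from the start site, and the Krt8 run is chr15:102004293-102004592 (minus strand), with the motif at -111. The Krt18 run is chr15:102027966-102028265 (plus strand), with the motif at -214, and the Vim run is chr2:13574061-13574360 (plus strand).
Krt7: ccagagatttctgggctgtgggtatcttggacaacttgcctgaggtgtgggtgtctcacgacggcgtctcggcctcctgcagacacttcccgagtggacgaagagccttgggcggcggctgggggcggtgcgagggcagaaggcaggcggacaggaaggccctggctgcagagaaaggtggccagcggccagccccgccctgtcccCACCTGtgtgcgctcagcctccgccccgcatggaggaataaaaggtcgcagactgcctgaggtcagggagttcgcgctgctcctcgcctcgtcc
Krt8: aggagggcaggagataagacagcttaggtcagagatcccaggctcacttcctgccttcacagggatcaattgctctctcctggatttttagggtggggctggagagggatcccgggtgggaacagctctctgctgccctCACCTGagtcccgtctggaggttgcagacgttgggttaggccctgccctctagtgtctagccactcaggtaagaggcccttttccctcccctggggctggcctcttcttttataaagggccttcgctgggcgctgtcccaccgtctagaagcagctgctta
Krt18: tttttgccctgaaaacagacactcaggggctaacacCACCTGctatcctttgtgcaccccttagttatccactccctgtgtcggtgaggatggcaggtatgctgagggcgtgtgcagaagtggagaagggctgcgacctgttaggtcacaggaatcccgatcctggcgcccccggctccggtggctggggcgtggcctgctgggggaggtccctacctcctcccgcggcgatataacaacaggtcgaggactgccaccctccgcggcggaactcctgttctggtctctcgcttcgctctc
Vim: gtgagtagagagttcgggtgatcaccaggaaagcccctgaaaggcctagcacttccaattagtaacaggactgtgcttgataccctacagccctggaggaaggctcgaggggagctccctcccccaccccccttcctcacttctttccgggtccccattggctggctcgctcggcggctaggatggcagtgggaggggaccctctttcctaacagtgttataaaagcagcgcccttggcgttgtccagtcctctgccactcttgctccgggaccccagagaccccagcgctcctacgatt
The motif stood in the runs of Krt7, Krt8 and Krt18 and in none of those of Vim, Nes, Ina and Gfap, that is in 3 of the 7 filament genes with a promoter entry. Of 32851 promoters of this length, 20.2% held it. Krt19, Nefl and Nefm were not matched. A match describes the letters, and binding of ZEB1 was not measured in these libraries. Krt8 and Krt18 lie beside each other on chromosome 15 on opposite strands, with gene bodies at 101996698 to 102004482 and 102028180 to 102032027, and Krt7 lies on the same chromosome at 101411043 to 101430313.

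The allele was visible in Zeb1 itself. In the young pituitary Zeb1 stood at 95.6 to 98.5 CPM in WT, 126 to 135 CPM in 200H and 132 to 141 CPM in 200M, with no overlap between WT and either knock-in genotype. The log2 fold change was 0.52 (adjusted p = 2.39e-05, SE 0.06) in 200M and 0.44 (adjusted p = 0.000895, SE 0.07) in 200H. In the older pituitary it was 0.55 (adjusted p = 0.000833, SE 0.09) in 200M and 0.33 (adjusted p = 0.0139, SE 0.08) in 200H. Zeb1 was not called in the hypothalamus or ovary of either cohort. The labelled tissues matched their defining genes: the summed pituitary hormone genes lay between 67400 and 321446 CPM in the pituitary libraries and at most 164 CPM in the hypothalamus and 39.8 CPM in the ovary.

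The filament genes divided the 3 tissues by lineage, and here levels are compared between genes as CPM per kilobase of exon. In WT hypothalamus the neuronal and astrocytic chains led: Nefl averaged 51.9 ± 3.11 (SD, n = 4), Ina 48.0 ± 2.63 (SD, n = 4) and Gfap 31.0 ± 4.24 (SD, n = 4) in the young cohort, and the 4 keratins averaged at most 0.465. Nefl and Ina differed by about their spread, and Gfap lay below both. In WT ovary Vim led, at 103 ± 3.71 (SD, n = 4) in young mice and 248 ± 21.9 (SD, n = 4) in older mice, and Nefl, Nefm, Ina and Gfap averaged at most 0.272. Among the keratins of the young WT ovary, Krt19 (9.75 ± 2.13, SD, n = 4) and Krt18 (6.49 ± 2.07, SD, n = 4) overlapped in their spread, as did Krt8 (3.41 ± 0.35) and Krt7 (3.23 ± 0.64). The WT pituitary held both epithelial and neural chains. In young WT pituitary the order per length was Ina at 26.8 ± 2.24 (SD, n = 3), Krt18 at 7.64 ± 1.09, Nes at 4.59 ± 0.73, Vim at 4.36 ± 0.34, Krt8 at 3.32 ± 0.27 and Krt7 at 2.91 ± 0.49, followed by Nefl, Nefm, Gfap and Krt19 at 0.833 or less. Nes did not differ from Vim beyond their spread, nor Krt8 from Krt7. In older WT pituitary Krt18 stood first at 34.7 ± 5.42 (SD, n = 4), ahead of Ina at 26.3 ± 4.44 and Nes at 20.4 ± 8.32, whose ranges overlapped. Krt19, the type I keratin of ducts and surface epithelia, stayed at 0.102 to 1.02 CPM in every pituitary library, from 1 to 12 counts, and did not pass the filter on low counts there.

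**Figure D1:**
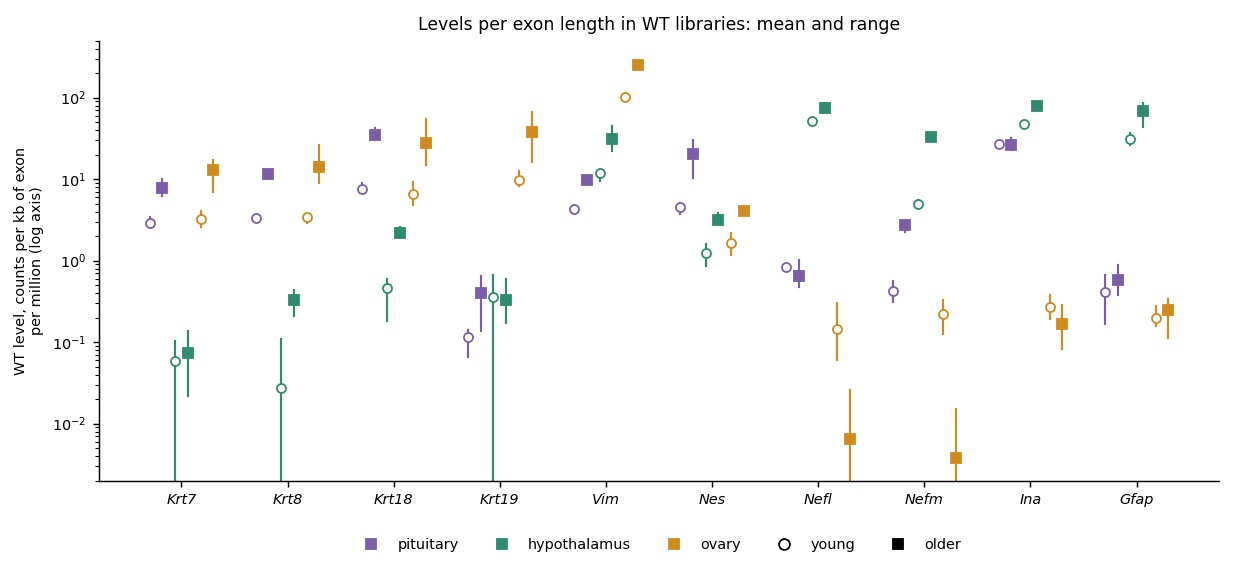
Level of each intermediate filament gene in WT mice, as CPM per kilobase of exon on a log axis, for the 6 combinations of tissue and cohort. Points are group means (n = 3 in young pituitary, n = 4 elsewhere) and bars run from the lowest to the highest library, down to the foot of the axis where a library had 0 counts; Vim leads in ovary, Nefl and Ina in hypothalamus, and the pituitary holds Ina beside the keratins.

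In the pituitary the epithelial keratins Krt7, Krt8 and Krt18 fell in heterozygous and homozygous mice of both cohorts. Krt7 had the largest log2 fold change of the 9 filament genes tested there. In young mice it measured 10.2, 11.4 and 14.2 CPM in WT, 1.81, 1.87, 2.59 and 2.32 CPM in 200H and 1.15, 1.98, 1.32 and 1.91 CPM in 200M. Every knock-in library lay below every WT library, while the knock-in genotypes overlapped. The log2 fold change was -2.92 (adjusted p = 4.3e-07, SE 0.22) in 200M, a 7.54-fold lower level, and -2.47 (adjusted p = 8.22e-06, SE 0.21) in 200H, 5.53-fold lower. In bulk tissue, fewer cells that express a gene and less RNA per cell cannot be told apart. Older mice gave 31.1, 41.4, 31.5 and 25.2 CPM of Krt7 in WT, 3.24, 3.52, 1.78 and 1.59 CPM in 200H and 2.55, 2.81 and 1.45 CPM in 200M. Again no knock-in library reached the WT range, and the log2 fold changes were -3.78 (adjusted p = 9.24e-07, SE 0.25) in 200M, 13.8-fold lower, and -3.63 (adjusted p = 1.43e-06, SE 0.24) in 200H, 12.4-fold lower.

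Krt8, the type II partner of Krt18 in simple epithelia, measured 6.03, 6.38 and 7.08 CPM in young WT pituitary, 2.24, 1.61, 2.79 and 2.01 CPM in 200H and 2.15, 1.65, 2.34 and 1.65 CPM in 200M. WT and knock-in libraries did not overlap, and the log2 fold changes were -1.70 (adjusted p = 5.84e-05, SE 0.22) in 200M and -1.58 (adjusted p = 0.000693, SE 0.23) in 200H. In older mice Krt8 was 22.1, 24.0, 21.8 and 22.9 CPM in WT, 5.90, 6.72, 7.73 and 5.93 CPM in 200H and 4.88, 7.29 and 5.80 CPM in 200M. The gap between genotypes was again wider than the spread within them, with log2 fold changes of -1.89 (adjusted p = 5.97e-06, SE 0.15) in 200M and -1.81 (adjusted p = 2e-06, SE 0.13) in 200H. A processed copy with its own row, Krt8-ps, reached at most 0.322 CPM in any pituitary library.

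Krt18, the type I chain that pairs with Krt8, measured 12.8, 10.3 and 9.86 CPM in young WT pituitary, 5.42, 3.31, 4.59 and 3.70 CPM in 200H and 4.07, 2.97, 3.95 and 4.83 CPM in 200M. All knock-in libraries were below WT, and the log2 fold changes were -1.47 (adjusted p = 4.81e-05, SE 0.19) in 200M and -1.35 (adjusted p = 0.000633, SE 0.20) in 200H. Older mice gave 44.6, 50.1, 44.1 and 60.9 CPM in WT, 18.2, 19.7, 24.4 and 19.3 CPM in 200H and 22.9, 27.5 and 27.1 CPM in 200M. Here too WT stood apart, with log2 fold changes of -0.95 (adjusted p = 0.000337, SE 0.13) in 200M and -1.31 (adjusted p = 3.08e-05, SE 0.13) in 200H. The ratio of Krt18 to Krt8, both per kilobase, was 2.75 to 3.62 in older WT, 4.00 to 4.43 in 200H and 5.14 to 6.40 in 200M. These ranges did not overlap in older mice, but in young mice they did, at 1.90 to 2.89 in WT, 2.24 to 3.30 in 200H and 2.30 to 3.98 in 200M. The ratio is a description and was not tested.

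**Figure D2:**
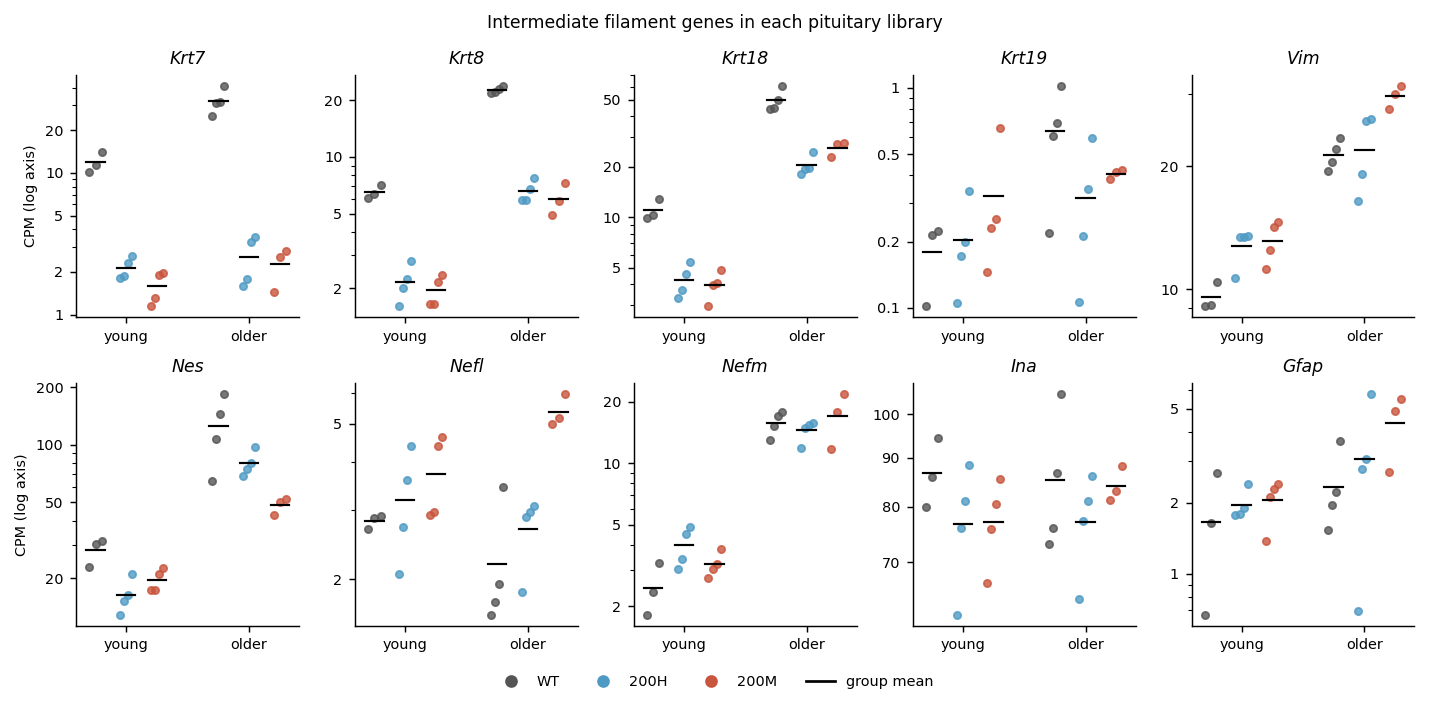
CPM of each intermediate filament gene in every pituitary library, on log axes that differ between panels, for WT, 200H and 200M mice of the young and older cohorts. Each point is 1 library and each bar a group mean; Krt7, Krt8 and Krt18 are lower in every knock-in library than in every WT library of the same cohort.

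Vimentin moved the other way, and by less. Vim was 10.4, 9.18 and 9.11 CPM in young WT pituitary, 10.7, 13.4, 13.5 and 13.4 CPM in 200H and 14.6, 11.2, 14.2 and 12.5 CPM in 200M, so all knock-in libraries exceeded WT. It was called higher in 200M, with a log2 change of 0.47 (adjusted p = 0.0265, SE 0.14), and in 200H the value was 0.42 (adjusted p = 0.079, SE 0.14), which did not pass. The young call was lost under DESeq2 (adjusted p = 0.0691) and in an edgeR fit with replicate number as a block (adjusted p = 0.184). The block fit kept only libraries whose number occurred in both genotypes, 2 of each, and so lacked the WT library of unmatched number. In the main edgeR fit the young call was also lost when any 1 of 4 libraries was left out, where adjusted p ran from 0.0681 to 0.0927. These were WT replicate 2, the WT library of unmatched number, 200M replicate 1 and 200M replicate 3. In older mice Vim was 19.5, 20.4, 23.5 and 22.0 CPM in WT, 16.4, 26.0, 25.8 and 19.2 CPM in 200H and 27.6, 31.5 and 30.0 CPM in 200M. The 200M libraries stood above all WT libraries, with a log2 change of 0.49 (adjusted p = 0.00816, SE 0.11), while 200H spread across the WT range at 0.03 (adjusted p = 0.923, SE 0.15). With 200M replicate 2 left out it was 0.44 and missed the threshold (adjusted p = 0.0523).

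Marker lists for cell types that make vimentin were read beside it. Of 6 fibroblast markers, 1 rose and 1 fell in young 200M against WT and 2 rose and 1 fell in older 200M, and their summed level was 560 to 671 CPM in young WT against 305 to 432 CPM in 200M, and 672 to 1000 CPM in older WT against 447 to 572 CPM. Dcn, a proteoglycan gene, was higher (log2 fold change 0.64 young and 0.91 older), and Col1a2, a collagen chain, lower (-1.68 and -1.24). Col1a2 was the largest part of the fibroblast sum, averaging 471 CPM in young WT and 146 CPM in young 200M, and 704 and 298 CPM in older mice. The other fibroblast markers each averaged higher in 200M than in WT in both cohorts, so the fall of the sum is that of Col1a2. Of 4 macrophage markers, 2 rose in each cohort, summing to 21.1 to 26.6 CPM in young WT against 33.0 to 37.1 CPM in 200M, and 58.2 to 74.2 CPM in older WT against 80.0 to 108 CPM. Of 5 mural markers, 2 rose in young 200M and 0 in older 200M, and of 5 endothelial markers 0 rose in young and 1 in older 200M. None of these lists had a member at 0 in a whole group, and their part in the Vim values was not tested.

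Nestin fell in 200M of both cohorts and in young 200H. In young pituitary Nes measured 23.0, 30.1 and 31.3 CPM in WT, 20.9, 16.3, 15.2 and 12.9 CPM in 200H and 22.5, 17.4, 21.2 and 17.4 CPM in 200M. The lowest WT library lay just above the highest knock-in library, and the log2 fold changes were -0.50 (adjusted p = 0.0125, SE 0.13) in 200M and -0.77 (adjusted p = 0.00623, SE 0.16) in 200H. Leaving out the WT library of unmatched number raised the 200M value to adjusted p = 0.0726 (edgeR). The edgeR fit with replicate number as a block, which also lacked that library and kept 2 per genotype, gave adjusted p = 0.129. In older mice Nes was 64.2, 108, 144 and 183 CPM in WT, 80.1, 74.3, 68.6 and 97.3 CPM in 200H and 52.2, 50.0 and 43.1 CPM in 200M. The WT libraries were widely spread, 200M lay below all of them, and 200H overlapped them. The log2 fold change was -1.36 (adjusted p = 0.00383, SE 0.27) in 200M, and in 200H it was -0.64 (adjusted p = 0.113, SE 0.24), or -0.85 (adjusted p = 0.00998) without WT replicate 1. Nestin is also used as a marker of stem cells in the gland. Of 5 pituitary stem cell markers, 4 were tested and 1 rose in young 200M, and 3 were tested and 2 rose in older 200M. Their summed level was 48.4 to 60.2 CPM in young WT against 56.0 to 65.9 CPM in 200M, and 56.1 to 60.2 CPM against 77.7 to 82.2 CPM in older mice, so in older mice the sum was higher in 200M, where Nes was lower. The part of these cells in the Nes values was not tested.

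The neuronal chains were mixed. Nefl, the light neurofilament chain, was 1.95, 1.62, 3.44 and 1.74 CPM in older WT pituitary, 1.85, 2.88, 2.97 and 3.07 CPM in 200H and 5.94, 4.99 and 5.18 CPM in 200M. The 200M libraries lay above all others, and the log2 fold change was 1.37 (adjusted p = 0.00419, SE 0.27), while 200H gave 0.38 (adjusted p = 0.443, SE 0.29). In young mice Nefl was 2.86, 2.69 and 2.90 CPM in WT and 4.38, 2.97, 4.61 and 2.92 CPM in 200M, with a log2 change of 0.43 (adjusted p = 0.252, SE 0.25). Nefm, the medium chain, did not pass in either cohort, at 0.38 (adjusted p = 0.359, SE 0.27) in young and 0.15 (adjusted p = 0.62, SE 0.19) in older 200M. Ina, the most abundant neuronal chain of the gland per length, was nearly level, at -0.15 (SE 0.09, 95% interval -0.33 to 0.02) in young and -0.02 (SE 0.12, 95% interval -0.26 to 0.21) in older 200M. Exons of Nefl and Nefm overlap on opposite strands over 1108 nt and those of Ina and Nt5c2 over 456 nt, so in the unstranded older libraries their reads cannot be told apart there. Gfap was 1.53, 2.22, 3.64 and 1.96 CPM in older WT and 4.88, 5.50 and 2.69 CPM in 200M, with 0.694 to 5.76 CPM in 200H. The WT and 200M ranges overlapped, and Gfap was called at a log2 change of 0.99 (adjusted p = 0.0461, SE 0.32). That call was lost under DESeq2 (adjusted p = 0.0934), in a fit of all 3 genotypes (adjusted p = 0.164) and with the replicate block on 3 libraries per genotype (adjusted p = 0.0861). It was also lost when any of 5 libraries (WT replicates 1, 2 and 4, 200M replicates 1 and 2) was left out. In young mice Gfap gave 0.29 (adjusted p = 0.659, SE 0.39).

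Markers of neural tissue moved beside these genes. Of 7 neuron markers, 6 were tested in older 200M against WT, of which 4 rose and 1 fell, and 5 in young 200M, of which 2 rose and 2 fell. Stmn2, a growth-associated tubulin regulator, gave a log2 fold change of 1.95 in older and 1.41 in young 200M, whereas Gad2, an enzyme of GABA synthesis, gave -0.91 and -0.97. The neuron markers summed to 117 to 158 CPM in older WT against 153 to 173 CPM in 200M, and to 184 to 201 CPM in young WT against 109 to 187 CPM in 200M. In WT these sums were mostly Slc17a6 and Gad2, which averaged 63.9 and 52.2 CPM in older and 98.9 and 67.2 CPM in young mice. In 200M they averaged 70.4 and 27.8 CPM in older and 61.1 and 33.7 CPM in young mice. The other neuron markers each averaged higher in 200M than in WT in both cohorts. All 5 astrocyte markers were tested and 3 rose in 200M of each cohort, with Aldh1l1, a folate enzyme of astrocytes, at 1.76 in young and 1.62 in older mice. The astrocyte sum was 90.9 to 102 CPM in older WT against 165 to 185 CPM in 200M, and 138 to 162 CPM against 227 to 256 CPM in young mice. Of 4 tested posterior pituitary markers, 2 rose in each cohort, and their sum went from 65.0 to 71.8 CPM in older WT to 91.3 to 119 CPM in 200M. No neuron, astrocyte or posterior pituitary marker was at 0 in a whole group, although Gad1 averaged only 0.208 CPM in young and 0.027 CPM in older WT. The part of these cells in the Nefl and Gfap values was not tested.

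Across the filament genes, 9 of 10 were tested in each pituitary comparison. In young 200M against WT, 5 were called (1 higher, 4 lower), where 21.5% of all tested genes were called (11.5% higher, 10.0% lower). The members' median log2 fold change was -0.15 against 0.00 over all genes. Young 200H had 4 called, all lower, against 12.3% of all genes (6.56% higher, 5.72% lower). In older 200M, 7 were called (3 higher, 4 lower) against 21.4% of genes (11.7% higher, 9.77% lower), with a median of -0.02 against -0.01. Older 200H had 3 called, all lower, against 12.2% (7.09% higher, 5.14% lower). A single very abundant transcript also fell in the gland: Prl, the prolactin gene, had a log2 fold change of -1.61 in young and -1.66 in older 200M, and of -1.58 and -1.22 in 200H. Scaling by library totals alone, chosen after seeing the data, moved the median of all genes to 0.12 and 0.13 in young 200M and 200H and to 0.16 in both older genotypes. The share of higher genes among all calls then rose from 53.5% to 76.8% in young 200M, from 53.4% to 79.6% in young 200H, from 54.4% to 84.0% in older 200M and from 58.0% to 87.1% in older 200H. The directions of all called filament genes were kept under that scaling, the keratins and Nes included. The uncalled values of Ina in older 200M (0.15) and 200H (0.02) and of Nefm in older 200H (0.05) changed sign, and Vim in young 200H became called (0.54, adjusted p = 0.0251).

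**Figure D3:**
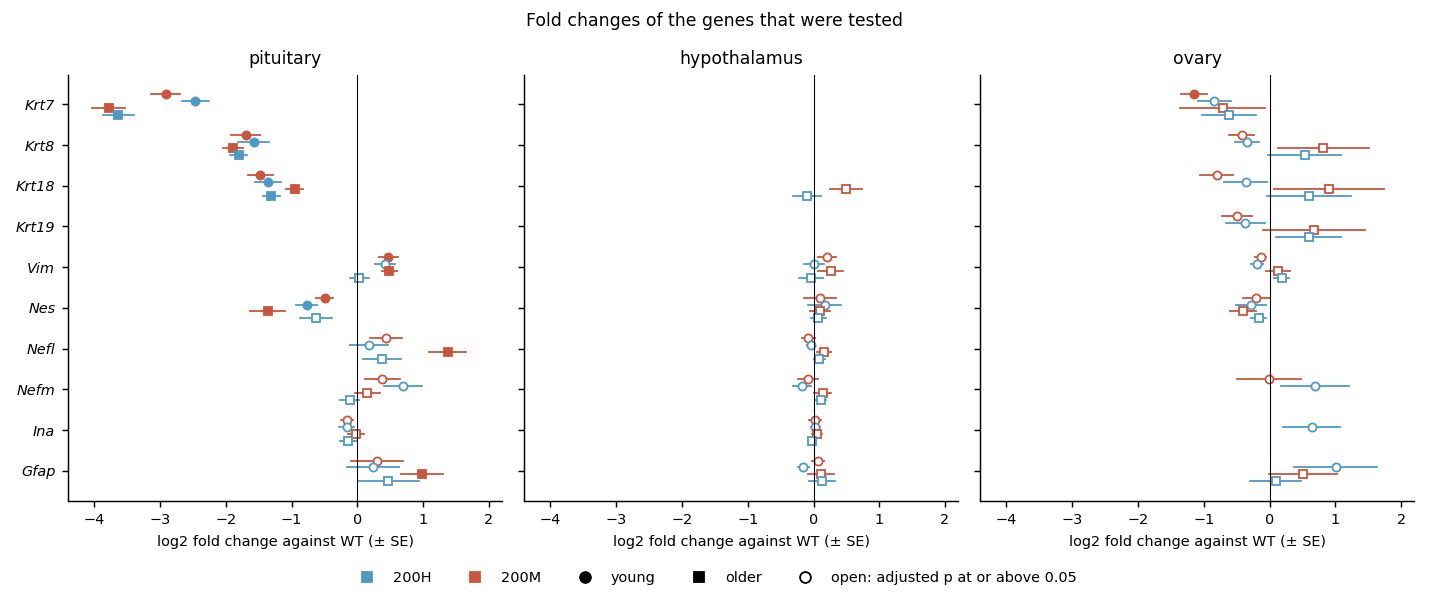
Log2 fold change of each intermediate filament gene, with its standard error, for 200M and 200H against WT in each tissue and cohort. Filled points were called at an adjusted p below 0.05 in edgeR's quasi-likelihood test; called genes appear in the pituitary and, for Krt7 alone, in the young ovary.

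The homozygous and heterozygous pituitaries were also compared with each other. In young mice 0 of 9 filament genes were called, with 0 at an unadjusted p below 0.05 in edgeR's quasi-likelihood test and a smallest adjusted p of 0.872, where 0.0383% of all genes were called. Krt7 differed by -0.45 (SE 0.28), with a 95% interval from -1.0 to 0.11, so a further drop to that size in homozygotes remained possible. In older mice 1 was called against 0.121% of all genes, namely Nes, at -0.74 (adjusted p = 0.0457, SE 0.12). That call was lost in the fit of all 3 genotypes (adjusted p = 0.37) and when any of 200H replicates 1, 3 and 4 or any 200M library was left out (adjusted p from 0.0673 to 0.27). Nefl (0.98, adjusted p = 0.138) and Krt18 (0.35, adjusted p = 0.321) were higher in 200M on average without passing, and Krt7 differed by -0.16 (95% interval -0.87 to 0.55).

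In the hypothalamus the neural chains were abundant and their genotype differences were within the replicate spread. Young Nefl was 186, 163, 171 and 182 CPM in WT and 124, 186, 188 and 166 CPM in 200M, and older Nefl 266, 293, 226 and 235 CPM in WT and 294, 262 and 301 CPM in 200M. Gfap, which varied more between animals, was 108 to 149 CPM in young WT and 115 to 150 CPM in 200M, and 176 to 351 CPM in older WT and 228 to 361 CPM in 200M. The groups overlapped in every case. None of 6 tested members was called in the young cohort in 200M against WT, 200H against WT or 200M against 200H, where 0.0200%, 0.0202% and 0% of all genes were called. In these comparisons edgeR's test gave 0, 0 and 0 members at an unadjusted p below 0.05. In the older cohort 0 of 7, 0 of 7 and 0 of 8 members were called, with 0, 0 and 1 at an unadjusted p below 0.05, against 0.00622%, 0% and 0% of all genes. The smallest adjusted p among them was 0.239, for Krt18 in older 200M against 200H (log2 fold change 0.59, SE 0.26). Intervals were narrow for the abundant chains: Ina in older 200M against WT had a log2 fold change of 0.05 (SE 0.07) and Nefl 0.16 (SE 0.10). Krt18 had 20 to 70 counts in an older hypothalamus library and gave 0.50 in 200M against WT (adjusted p = 0.294, SE 0.24). Krt7 and Krt8 could hardly be measured in the young hypothalamus. They had at most 2 and 1 counts in a young hypothalamus library, and a count of 0 allows up to 0.583 to 0.903 CPM at these depths (3 counts, counting error only), so a genotype difference was not detectable.

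In the young ovary Krt7 was lower in homozygotes. It measured 11.5, 14.3, 10.7 and 16.4 CPM in WT, 3.78, 7.87, 10.5 and 7.33 CPM in 200H and 5.72, 7.57, 6.42 and 4.06 CPM in 200M, and all knock-in libraries were below WT. The log2 fold change was -1.14 (adjusted p = 0.0114, SE 0.20) in 200M and -0.84 (adjusted p = 0.466, SE 0.25) in 200H. The 200M call was lost in the fit of all 3 genotypes (-1.15, adjusted p = 0.0507) and with the replicate block (-1.16, adjusted p = 0.0526). Krt7 was the 1 of 7 tested members called in 200M, where 2.58% of all genes were called. Krt18 was 10.3, 7.01, 6.89 and 13.1 CPM in WT and 5.12, 6.04, 7.02 and 3.25 CPM in 200M, with a log2 change of -0.81 (adjusted p = 0.121, SE 0.25). Krt8 (-0.42, adjusted p = 0.281), Krt19 (-0.50, adjusted p = 0.313) and Vim (-0.14, adjusted p = 0.457) did not pass. Without 200M replicate 2, Krt19 (-0.79, adjusted p = 0.0327) and Vim (-0.24, adjusted p = 0.0462) became called. In young 200H, 0 of 9 were called (1 at an unadjusted p below 0.05) against 0.00510% of all genes, and in 200M against 200H 0 of 9 (0 unadjusted) against 0%.

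Some markers of the ovarian surface epithelium were lower beside Krt7, and oviduct markers were not called. The 5 ovarian surface epithelium markers summed to 125 to 154 CPM in young WT, 73.5 to 125 CPM in 200H and 75.2 to 106 CPM in 200M, and 3 of the 5 were called lower in 200M. Upk1b, a urothelial and mesothelial membrane gene, averaged 32.4 CPM in WT and 14.2 CPM in 200M. Upk3b averaged 34.0 CPM in WT and 32.8 CPM in 200M, and Msln 6.75 and 5.84 CPM, and for both genes the WT and 200M libraries overlapped. Oviduct markers, which tell how much oviduct came with the ovary, summed to 223 to 529 CPM in WT, 26.1 to 585 CPM in 200H and 33.5 to 545 CPM in 200M, with 0 of 4 called. The lowest Krt7 values of the knock-in groups, in 200H replicate 1 and 200M replicate 4, came from the libraries with the lowest oviduct sums of 26.1 and 33.5 CPM. Their surface epithelium sums were the lowest of 200H (73.5 CPM) and the highest of 200M (106 CPM). Across genotypes the order differed: WT replicate 3, with an oviduct sum of 223 CPM, had 10.7 CPM of Krt7. The 200M replicates 1 to 3, with sums of 442 to 545 CPM, had 5.72 to 7.57 CPM. The part of these epithelia in the Krt7 value was not tested.

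In the older ovary the keratins varied more within a genotype than between genotypes. Krt8 was 51.9, 18.4, 17.4 and 21.3 CPM in WT, 16.6, 25.0, 27.2 and 85.2 CPM in 200H and 27.2, 14.6, 127 and 21 CPM in 200M. Krt19 was 106, 46.5, 25.5 and 64.3 CPM in WT, 50.5, 91.6, 52.3 and 166 CPM in 200H and 70.6, 14.2, 259 and 41.6 CPM in 200M. In each genotype a single library stood highest for both genes, and for Krt18 and Krt7 too: WT replicate 1, 200H replicate 4 and 200M replicate 3. These libraries held the highest sums of the oviduct markers in their genotype, 728, 3102 and 3191 CPM, against 15.3 to 18 CPM in the other WT libraries, 18.2 to 364 CPM in the other 200H libraries and 45.1 to 337 CPM in the other 200M libraries. Krt7 was 71.1, 45.4, 28.6 and 68.5 CPM in WT and 24.0, 6.32, 80.7 and 17.7 CPM in 200M, a log2 change of -0.72 (adjusted p = 0.602, SE 0.65), and Krt18 gave 0.91 (adjusted p = 0.607, SE 0.84). None of 7 tested members was called in 200M against WT, 200H against WT or 200M against 200H, with 0 at an unadjusted p below 0.05 in edgeR's test in each, where 2.71%, 0% and 1.61% of all genes were called. Vim, the leading filament gene of the ovary, was 518, 494, 569 and 599 CPM in WT and 798, 543, 434 and 613 CPM in 200M, which overlapped. Its log2 fold change was 0.13 (SE 0.18, 95% interval -0.22 to 0.49). Nefl had at most 1 count in an older ovary library, and a count of 0 allows up to 0.205 to 0.376 CPM there.

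**Figure D4:**
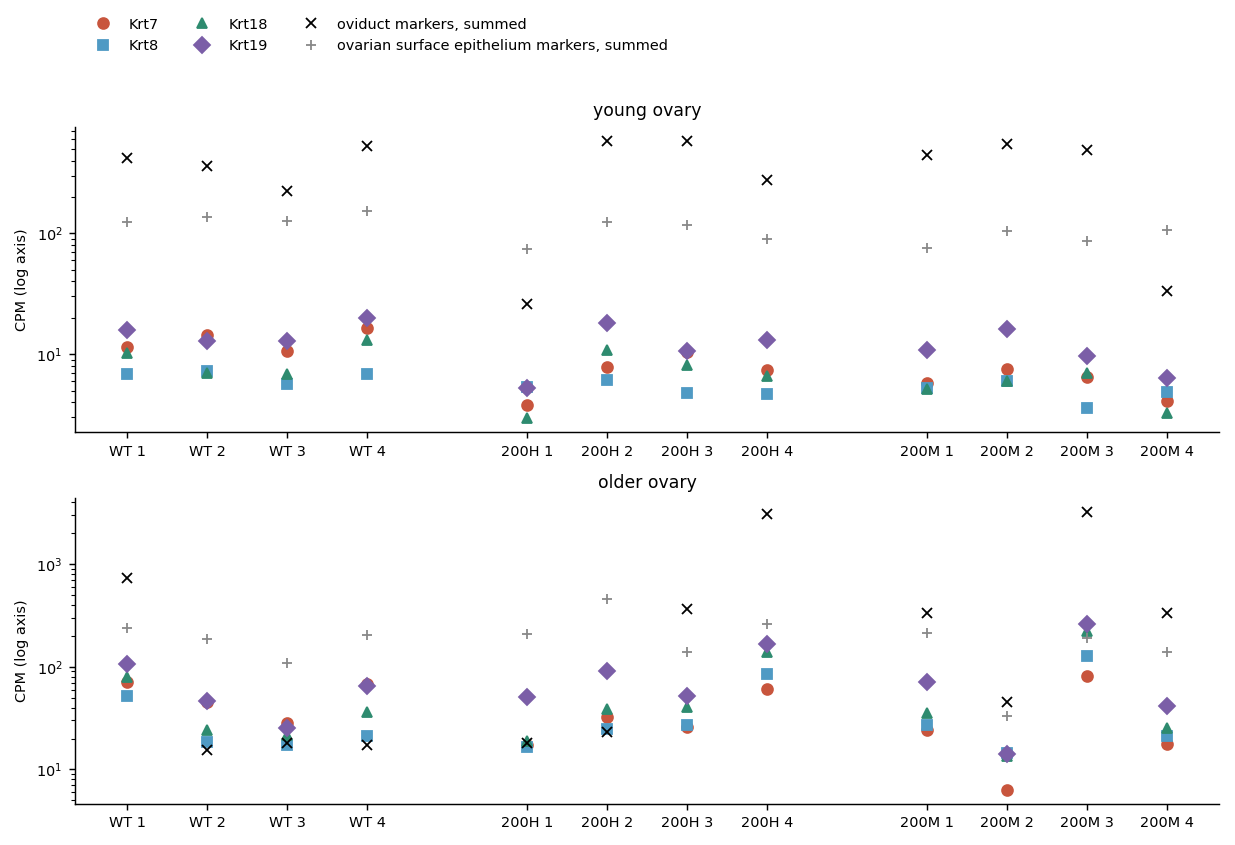
CPM of Krt7, Krt8, Krt18 and Krt19 and the summed CPM of oviduct and ovarian surface epithelium markers in every ovary library, on a log axis, by genotype and cohort. In the older cohort the library with the highest keratins in each genotype also has the highest oviduct sum of that genotype.

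Whether the change in homozygotes differed between tissues was tested as an interaction. Between young pituitary and young ovary, 3 of 10 members differed, against 10.1% of all genes. Within a tissue, 9 members were tested in young pituitary and 7 in young ovary, so some passed the filter through 1 tissue alone. Krt7 differed by -1.77 on the log2 scale (adjusted p = 0.00086, SE 0.31), Krt8 by -1.27 (adjusted p = 0.0053, SE 0.28) and Vim by 0.62 (adjusted p = 0.014, SE 0.16), so the declines of Krt7 and Krt8 and the increase of Vim were larger in the gland. Krt18 gave -0.66 (adjusted p = 0.249, SE 0.34) and was not called. Against young hypothalamus 0 of 9 differed (2 at an unadjusted p below 0.05, edgeR), where 10.5% of genes did, and the near absence of keratin counts there left a standard error of 1.42 for Krt7. Between older pituitary and older hypothalamus 17.5% of genes differed. Krt7 (-4.31) and Krt8 (-2.57) passed the filter on low counts through the pituitary alone, with 1 to 7 and 4 to 17 counts in an older hypothalamus library, so their values are a description. Of the 7 members tested in both tissues 3 differed, Krt18 by -1.45 (adjusted p = 0.00087, SE 0.26), Nes by -1.46 (adjusted p = 0.00796, SE 0.35) and Nefl by 1.23 (adjusted p = 0.00312, SE 0.26). Between older pituitary and older ovary 0 of 10 differed (3 at an unadjusted p below 0.05, edgeR), against 5.77% of genes, with Krt7 at -3.06 (adjusted p = 0.0664, SE 0.92) and Krt8 at -2.70 (adjusted p = 0.0864, SE 0.88). The 10 include Nefl and Nefm, with at most 1 and 2 counts in an older ovary library. They also include Krt19, with 1 to 12 counts in an older pituitary library. Nefl, Nefm and Krt19 passed the filter through 1 tissue alone, so a difference in them was hardly detectable. DESeq2 called 2 members in that comparison, and 0 in each of the other comparisons here in which edgeR's test called 0. Between cohorts, no member was called in the pituitary (0 of 9, 4 at an unadjusted p below 0.05, edgeR), ovary (0 of 9, 0 unadjusted) or hypothalamus (0 of 7, 0 unadjusted), where 0.0273%, 0.197% and 0.154% of genes were. The ovary count includes Nefm, with at most 2 counts in an older library, and the hypothalamus count Krt18, with at most 5 in a young library. For Krt7 the change in young pituitary minus that in older pituitary was 0.92 (adjusted p = 0.683, SE 0.38).

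Other genes of the family and genes that hold filaments together were read from lists chosen with earlier results of these data known. Their counts beside the shares over all genes are therefore a description. Of 58 further intermediate filament genes, 15 were tested in young and 16 in older pituitary. In young 200M Krt90, a type II keratin, rose (1.70, adjusted p = 0.0119) and Lmna, which encodes the nuclear lamins A and C, fell (-0.74, adjusted p = 4.21e-05). Lmna also fell in young 200H (-0.73, adjusted p = 0.00179) and in older 200M (-0.57, adjusted p = 0.012), where Lmnb2, a B-type lamin, fell too (-0.38, adjusted p = 0.0129). Nefh, the heavy neurofilament chain, rose in older 200M from 10.1 ± 0.69 CPM (SD, n = 4) to 18.3 ± 2.36 CPM (SD, n = 3), a log2 change of 0.87 (adjusted p = 0.00118), and so did Krt222 (0.83, adjusted p = 0.0039). In older 200H Krt222 rose (0.67, adjusted p = 0.0142) and Lmnb2 fell (-0.33, adjusted p = 0.0282). Thus 1 rose and 1 fell of 15 in young 200M and 0 and 1 in young 200H, where 21.5% and 12.3% of all genes tested were called, and 2 and 2 of 16 in older 200M and 1 and 1 in older 200H, where 21.4% and 12.2% were. Medians over the tested genes of the list were -0.01 in young and 0.09 in older 200M.

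Among 16 genes for desmosomal linkers and keratin turnover, 15 were tested in young 200M, of which 2 rose and 6 fell, where 11.5% of all genes were called higher and 10.0% lower. In older 200M 14 were tested, of which 1 rose and 4 fell, against 11.7% and 9.77%. In 200H, 0 rose and 6 fell in young mice, against 6.56% and 5.72%, and 1 rose and 4 fell in older mice, against 7.09% and 5.14%. The genes that rose, named after their values were seen, were Trim2, an E3 ubiquitin ligase that binds the light neurofilament chain (0.27 in young 200M, 0.39 in older 200M and 0.37 in older 200H), and Macf1, a linker of actin and microtubules (0.20 in young 200M). Pkp3, the desmosomal plaque protein plakophilin of epithelia, fell from 4.03 ± 0.62 CPM (SD, n = 3) in young WT to 0.569 ± 0.27 CPM (SD, n = 4) in 200M, a log2 change of -2.85 (adjusted p = 4.01e-05, SE 0.35), and from 10.9 ± 1.41 CPM (SD, n = 4) to 2.36 ± 0.27 CPM (SD, n = 3) in older mice (-2.23, adjusted p = 2.13e-05, SE 0.21). Fam83h, which organizes keratin filaments, fell by a log2 value of -1.47 (adjusted p = 1.57e-06) in young and -1.57 (adjusted p = 4.09e-05) in older 200M. Eppk1, the keratin-binding epiplakin, fell in young 200M (-1.10, adjusted p = 2.01e-05) and young 200H (-0.77, adjusted p = 0.00635). Pkp2 fell in 200M of both cohorts (-0.69, adjusted p = 0.00383, and -0.63, adjusted p = 0.0147). Pkp3, Fam83h and Pkp2 were also called lower in 200H of both cohorts. Jup, the plaque protein plakoglobin, fell in young 200M (-0.57, adjusted p = 0.000119), older 200M (-0.55, adjusted p = 0.00344) and young 200H (-0.49, adjusted p = 0.00193). Dsp, which ties keratins to desmosomes, fell in young 200M (-0.58, adjusted p = 0.00157), young 200H (-0.43, adjusted p = 0.0321) and older 200H (-0.56, adjusted p = 0.00644). Median log2 fold changes of the tested linker genes were -0.14 in young and -0.06 in older 200M.

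Over the 18 group means, correlations between the filament genes are given as a description in which groups share tissue, cohort and library type. Pearson correlations of log2 CPM were 0.97 for Krt8 with Krt18, 0.95 for Krt7 with Krt8, 0.95 for Nefl with Gfap and 0.93 for Nefl with Nefm. Vim followed Krt19 (0.94) more closely than Krt8 (0.51). Krt19 in turn was less like Krt7 (0.72), Krt8 (0.69) and Krt18 (0.61) than like Vim, and Nefl was less like Ina (0.85) than like Gfap. Among 14054 genes with a mean of at least 5 CPM, the 2 closest to Krt7 included Tes (0.972), and the closest were, to Krt8, Card19 and Brd2 (both 0.985), and to Krt18 Orai3 and Tbc1d20 (0.983 and 0.982). Krt19 was most like Sypl and Emp3 (0.989 and 0.988), Vim like Rarres2 and Fgfrl1 (0.996 and 0.993), and Nes like Dync2li1 and Usp36 (0.971 and 0.967). For the neural chains the closest were Gabrg1 and Phactr3 for Nefl (both 0.994), Otud7a and Kcnj9 for Nefm (0.989 and 0.986), and Tmem130 and Gnao1 for Ina (both 0.997). The 2 closest to Gfap included Ntsr2 (0.996).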

How the data were processed

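RNA was sequenced in 69 libraries from pituitary, hypothalamus and ovary of mice. The authors aligned reads to mm10 with STAR 2.7.1a and deposited raw counts per gene: HTSeq 0.9.1 in union mode without strand for older pituitary and hypothalamus (Ensembl 87), and featureCounts for the other libraries (GENCODE M25 basic), reverse-stranded for the young cohort and unstranded for older ovary. The deposited counts were used as given. Of the 69 libraries, 66 stood in 2 of the 18 tables with 0 genes differing. The tables also held 141 columns of per-sample values that were not used, and the authors' own fold changes and p-values, likewise not used. A deposited pairing of IDs with symbols, completed from the annotation, named 99.54% of the 55964 gene IDs.

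Genotypes were compared in pairs within a tissue and cohort with edgeR 4.0.16 in R 4.3.3 (TMM factors, filterByExpr, quasi-likelihood F-test, Benjamini-Hochberg adjustment over all genes tested). Standard errors are the log2 fold change over the root of F, and 95% intervals are 1.96 SE either side. Interactions compared the 200M effect between tissues or cohorts and treated libraries as independent, although whether a mouse gave more than 1 tissue is not given in the sources used here. DESeq2 1.42.0, RLE factors, no filter, all 3 genotypes in a fit, a replicate block and leaving out each library were tried as alternatives, and scaling by library totals was added after seeing the data. The replicate block kept only libraries whose number occurred in both genotypes. The procedure was tested on simulated counts.

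Library totals ranged from 7560888 to 13342430 counts in young and 4527753 to 12957678 in older pituitary, 3321845 to 5143128 and 10189605 to 13917738 in hypothalamus, and 6337205 to 12896366 and 7985206 to 14655095 in ovary, so 1 count is worth more CPM in young hypothalamus. In the young WT pituitary 1 column carried no replicate number that matched the labels and was used by its group alone. Of 18 pairs of groups, 0 had every correlation between replicates of the same number above 0.1. In groups this small that cannot decide whether the numbers pair animals. The genes, gene lists and markers were chosen with earlier results of these data known. All 10 genes are named throughout, and genes of the lists were picked for naming up to 4 per list and comparison, by size of the change among those called. Trim2 and Macf1 were named besides these, and further calls of the named linker genes are given too. For each gene the 2 genes with the most similar group means are named, except that some are not reported here.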

Additional observations from a re-analysis of the deposited data

Results flagged for a closer look

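Within groups of 4 libraries, a library was singled out when its gap to the nearest other exceeded Dixon's 95% critical value. Of 114 groups with a mean of at least 1 CPM, 7 met this, where chance gives about 1 in 20. In the older ovary, Krt8 stood apart in WT replicate 1 (51.9 CPM), 200H replicate 4 (85.2 CPM) and 200M replicate 3 (127 CPM), and Krt18 in 200M replicate 3 (223 CPM). These libraries also held oviduct marker sums of 728, 3102 and 3191 CPM, the highest of their genotype, and the part of oviduct tissue in the keratin values was not tested. In the pituitary, Vim in young 200H replicate 1 (10.7 CPM) and Nefl in older 200H replicate 1 (1.85 CPM) stood below the rest of their group, and Gfap in young ovary 200M replicate 3 (2.69 CPM) stood above.

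Differences of the 200M effect between tissues were singled out where the interaction passed edgeR's quasi-likelihood test. For young pituitary minus young ovary these were Krt7 (-1.77), Krt8 (-1.27), Vim (0.62) and Zeb1 (0.59) on the log2 scale. For young pituitary minus young hypothalamus it was Zeb1 (0.69), and for older pituitary minus older ovary Zeb1 (0.79), whose call was lost when any of 8 single libraries was left out: WT replicates 2, 3 or 4 of older ovary and WT replicates 1 or 2 or 200M replicates 1, 2 or 3 of older pituitary (adjusted p from 0.0508 to 0.0797, edgeR). For older pituitary minus older hypothalamus these were Krt7 (-4.31), Krt8 (-2.57), Krt18 (-1.45), Nes (-1.46), Nefl (1.23) and Zeb1 (0.81), of which Krt7 and Krt8 passed the filter on low counts through the pituitary alone (1 to 7 and 4 to 17 counts in an older hypothalamus library) and are a description.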

How the results depend on the processing

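The calls of Krt7, Krt8 and Krt18 in both knock-in genotypes and both pituitary cohorts were kept under every alternative tried. For Krt7 the log2 fold change ranged from -3.06 to -2.77 in young and from -4.01 to -3.58 in older 200M. Of 724 alternative values for 51 results on single genes, 671 kept their direction and side of the threshold, 34 no longer passed, 19 newly passed and 0 changed sign. Of 350 alternative counts of called members, 22 moved by more than 1.5 times. The cause was not tested for any of them.

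Members called in young pituitary 200M against WT numbered 3 with the replicate block in place of 5 (Vim adjusted p = 0.184 and Nes 0.129), and 3 to 5 with a library left out (3 without the WT library of unmatched number, where Nes and Vim no longer passed). The block fit there held 2 libraries per genotype and also lacked that WT library, so the block and the loss of libraries cannot be told apart. In older pituitary 200M against 200H, 1 became 3 with no filter, 0 in the fit of 3 genotypes, and 0 to 1 with a library left out. In young ovary 200M against WT, 1 became 2 with no filter, 0 in the fit of 3 genotypes, 0 with the replicate block (Krt7 adjusted p = 0.0526) and 1 to 3 with a library left out. With no filter, 0 became 1 in older hypothalamus 200M against 200H, in young ovary 200H against WT and in young minus older pituitary. For older pituitary minus older ovary, 0 became 2 with DESeq2, and 0 to 2 with a library left out. With the block Gfap in older pituitary 200M against WT had an adjusted p of 0.0861. The block moved no other count of members by more than 1.5 times. Libraries with the same replicate number correlated at r from -0.648 to 0.449, which in groups this small cannot decide whether the numbers pair animals.

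Counts of all called genes were less stable where few were called. With DESeq2, older hypothalamus 200M against WT went from 1 to 632, 200M against 200H from 0 to 637 and 200H against WT from 0 to 5. Without the filter these became 1079, 1325 and 97, and with the block 200M against WT gave 2 and 200M against 200H gave 1. Older ovary 200M against WT went from 482 to 1324 with DESeq2, 815 in the fit of 3 genotypes and 101 with the block, 200M against 200H from 288 to 876 and 77 with the block, and 200H against WT from 0 to 21 (DESeq2) and 1 (no filter). Young ovary 200M against WT went from 497 to 845 (no filter), 109 (3 genotypes) and 150 (block), 200H against WT from 1 to 76 (DESeq2) and 241 (no filter), and 200M against 200H from 0 to 45 (no filter). Young pituitary 200M against 200H went from 7 to 44 (DESeq2), 130 (no filter), 12 (3 genotypes) and 0 (block), and older pituitary from 18 to 125, 549 and 11 for the same first 3. Older pituitary 200H against WT went from 1825 to 2859 with library totals. Young hypothalamus gave 3, 3 and 0 in the main test, 0, 1 and 0 with DESeq2 and 30, 10 and 13 without the filter, and 200M against WT gave 11 with the block. Older pituitary minus older ovary went from 1082 to 1699 with DESeq2, and the cohort differences from 5, 43 and 26 to 16, 355 and 344 with DESeq2 and 78, 123 and 239 without the filter. Leaving out a library gave 1867 to 3768 genes in older pituitary 200M, 1196 to 2259 in young pituitary 200H and 112 to 1214 in young ovary 200M.

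Depth limited Gfap and Nefl in pituitary (6 to 54 and 14 to 63 counts per library) and Krt7 and Krt8 in hypothalamus. Cohorts differ in age, breeding history, library type and counting, so levels were tested within a cohort. Cell makeup and expression per cell cannot be told apart in bulk tissue.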
